A study of Homo sapiens with 10 samples.

Results

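The genes described here encode the soluble hydrolases of the lysosome, its main membrane glycoproteins, and the proteins that tag and sort hydrolases on their way to it. They are the genes named in a list of 37, and all 37 are among the 32738 genes of the count table. HepG2 cells, a hepatoma line, received regular growth medium (untreated) or the same medium with 2 µg/ml tunicamycin, both for 17 h. Each condition has 5 libraries, from 5 replicate experiments done on separate days, and all 10 libraries come from this single line. Libraries were made from total RNA with the QuantSeq method, which reads each mRNA near its 3′ end, so a count follows the number of transcripts rather than their length. Only mRNA was read, and neither the hydrolase proteins nor their glycans were measured.

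Lysosomal hydrolases are made in the endoplasmic reticulum (ER) as N-glycosylated proteins. In the Golgi, a phosphotransferase marks their glycans with mannose 6-phosphate, and receptors that bind this mark carry the enzymes to endosomes, from where they reach the acidic lysosome and degrade proteins, glycans, sulfated sugars and lipids. Tunicamycin blocks the first step in the assembly of the N-glycan precursor, so newly made hydrolases lack the sugar that would carry the tag, and unfolded glycoproteins accumulate in the ER. Transcription factors of the TFEB family are known to bind E-boxes with the core CACGTG that are common near the start sites of lysosomal genes.

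The untreated libraries held 4242538 to 4888292 counts and the tunicamycin libraries 2234682 to 5029864, with tunicamycin replicates 5 and 4 the shallowest. ER stress genes marked the treatment in every library: HSPA5, the ER chaperone BiP, rose by 2.97 on the log2 scale, HERPUD1 by 2.78 and DDIT3 by 1.42. Of the 8 ER stress genes checked 6 rose, ATF4 mRNA did not pass the test (log2 fold change -0.035), and XBP1 fell by 1.01 (adjusted p = 6.91e-07), where counts per gene do not separate the spliced form. The liver markers ALB, AFP, APOA1, APOB, TTR, SERPINA1, FGB, HNF4A and TF were present in all 10 libraries, and 5 of these 9 fell with tunicamycin (TTR by 1.02, APOA1 by 0.91, APOB by 0.78, FGB by 0.76 and TF by 0.38 on the log2 scale). For both short lists, the shares over all tested genes were 17.6% higher and 16.6% lower. Among markers of other cell types, PTPRC was at 0 counts everywhere, COL1A1, COL3A1, VWF and KRT19 reached at most 5 counts in any library, and CD68, ACTA2 and EPCAM were detected. PECAM1 was not analysed here.

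Of the 37 lysosomal genes, 35 passed the filter on low counts and were among 12733 genes tested. CTSZ, the gene of cathepsin Z, had 0 counts in every library (at this depth a level of up to 3 counts per library could be missed), and MAN2B1, the gene of lysosomal alpha-mannosidase, had at most 2. Overlap of CTSZ and MAN2B1 with other genes was not examined, so these counts do not show that the genes are silent. Tunicamycin upregulated 4 of the 35 tested genes and downregulated 11, while 20 did not pass the test (edgeR's quasi-likelihood test, Benjamini-Hochberg adjusted p below 0.05 over all tested genes). These are 11.4% higher and 31.4% lower, where 17.6% of all tested genes were higher and 16.6% lower, together 34.2%. The genes that rose were CTSL, IGF2R, ARSB and GNPTG. The genes that fell were NEU1, CTSA, GNPTAB, GUSB, CTSH, PPT1, GLB1, CTSD, ASAH1, NPC2 and SORT1. All 11 fell in 5 of 5 replicate pairs, and all 4 rose in 5 of 5. For the 11 and for CTSL this follows from the full separation of their libraries given below and adds nothing to it. The share of all tested genes with this pattern was not counted. In libraries from bulk RNA, fewer cells with a transcript and fewer transcripts per cell cannot be told apart.

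Lower genes were also separated more cleanly than higher ones. In all 11 lower genes, 31.4% of the 35, every tunicamycin library lay below every untreated library, beside 11.9% of all tested genes. In the other direction this held for CTSL only, 2.86% of the 35, beside 11.7% of all tested genes. By sign alone, 18 of the 35 log2 fold changes were positive and 17 negative. Their median was 0.016, beside -0.0033 for all tested genes. Within single replicate pairs it lay between -0.21 and 0.026, beside -0.021 to 0.017 for all tested genes. The 11 falls were of moderate size, from -0.44 for SORT1 to -1.04 for NEU1, and only that of NEU1 exceeded 2-fold. Of the 4 rises, 3 exceeded 2-fold. Among the 20 genes that did not pass the test, log2 fold changes ran from -0.48 for ARSA to 0.62 for IDUA, and 12 were within 0.2 of 0.

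**Figure D1:**
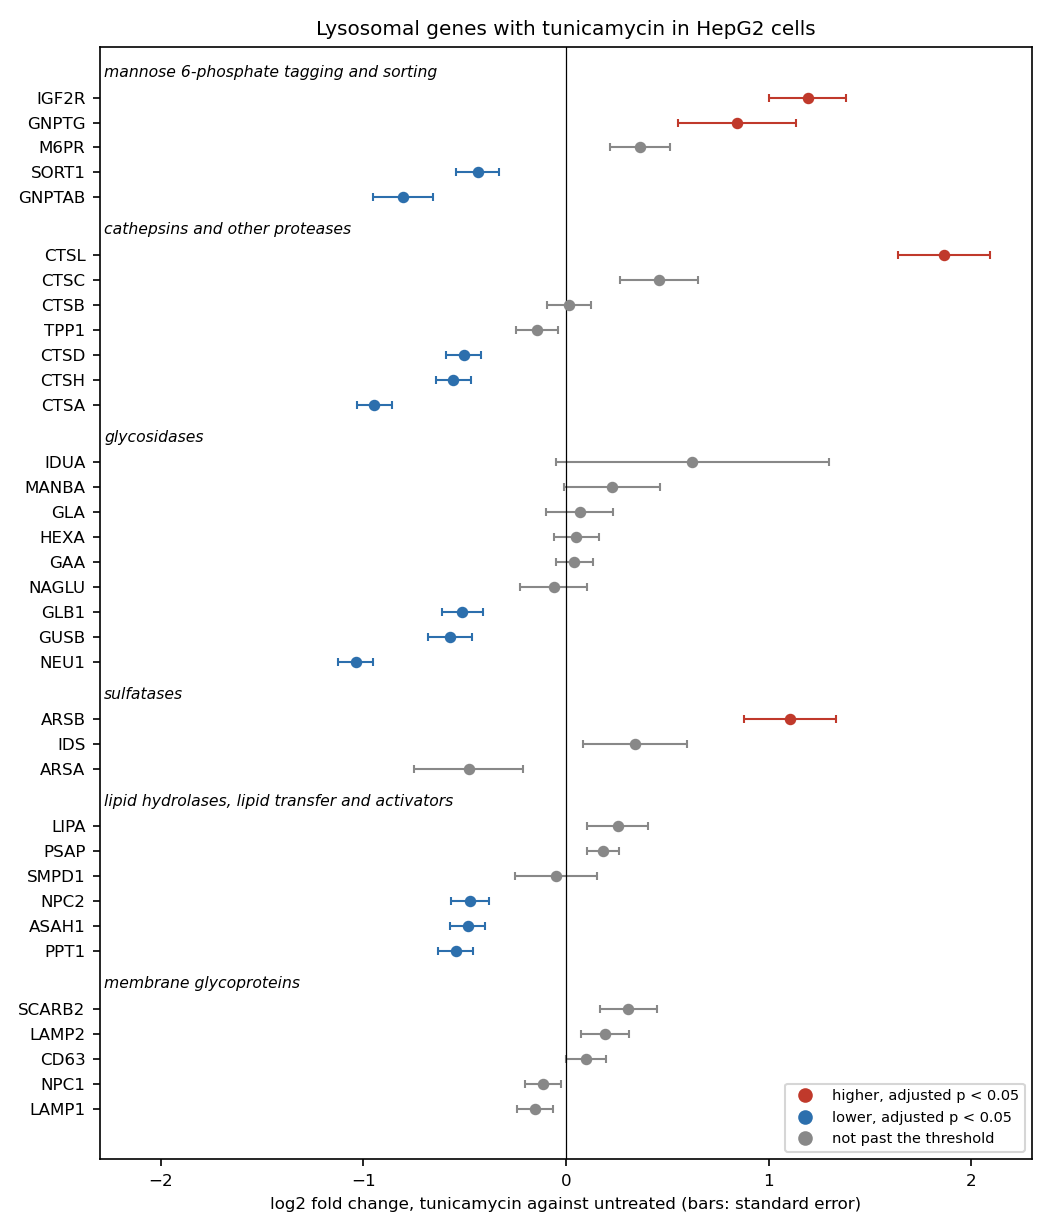
Log2 fold change (x axis, tunicamycin against untreated) of each of the 35 tested lysosomal genes (y axis), grouped by role; bars are standard errors from edgeR, and colours mark genes higher, lower or not past the threshold. The 4 red points reach 1.87 for CTSL, the 11 blue points lie between -0.44 and -1.04, and no membrane glycoprotein is coloured.

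RefSeq promoter windows, from 250 bases before to 50 after a transcript's start on GRCh38.p14, were found for 29 of the 37 genes by symbol; ARSA, ASAH1, CTSB, HEXA, LAMP2, MANBA, NAGLU and PSAP had no entry. Windows were searched on both strands for the E-box core CACGTG and for TCACGTGA, the 8-base palindrome that contains it, so that every gene with the longer word also counts for the shorter. The core was in at least 1 window of 10 of the 29 genes (34.5%), beside 8.77% of the 27305 genes with a window, and TCACGTGA was in 5 (17.2%), beside 1.18%. These 27305 genes were not limited to the 12733 tested. Of the 29 genes, 7 have 2 or more windows, and the number of windows per gene was not matched. In GNPTG, GAA and IGF2R the palindrome had G before it and C after it, a 10-base form found in 10.3% of these 29 genes and in 0.421% of all. The ER stress element in which CCAAT and CCACG are 9 bases apart was in 0 of the 29 (0.0916% of all), and TGACGTGG was also in 0 (0.927% of all).

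The stretches around the E-box are printed here because genes that rose and genes that fell share it. Each is given 5′ to 3′ on the strand of its gene, with the E-box and the bases of the palindrome that are present in capitals. GNPTG rose, NEU1, CTSA and CTSD fell, ARSB rose, and GAA, M6PR and CD63 did not pass the test. A further core in the CTSA stretch, outside the palindrome, is left in lower case.
GNPTG (chr16:1351899-1351930, plus strand): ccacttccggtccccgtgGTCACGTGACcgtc
GAA (chr17:80101485-80101530, plus strand): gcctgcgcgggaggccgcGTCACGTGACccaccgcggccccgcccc
CTSA (chr20:45891290-45891334, plus strand): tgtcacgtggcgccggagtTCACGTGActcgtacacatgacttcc
NEU1 (chr6:31862922-31862967, minus strand): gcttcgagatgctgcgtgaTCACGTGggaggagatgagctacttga
CTSD (chr11:1763949-1763994, minus strand): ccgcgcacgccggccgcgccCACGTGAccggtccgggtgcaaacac
ARSB (chr5:78986093-78986138, minus strand): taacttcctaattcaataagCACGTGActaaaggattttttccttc
M6PR (chr12:8949465-8949510, minus strand): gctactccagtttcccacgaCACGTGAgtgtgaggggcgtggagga
CD63 (chr12:55729164-55729209, minus strand): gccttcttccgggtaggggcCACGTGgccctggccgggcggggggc

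The upstream windows of IGF2R, which rose, and LAMP1, which did not pass the test, hold the most copies of the core, 3 and 5. Both are printed up to the start site with each CACGTG in capitals.
IGF2R (chr6:159968832-159969081, plus strand): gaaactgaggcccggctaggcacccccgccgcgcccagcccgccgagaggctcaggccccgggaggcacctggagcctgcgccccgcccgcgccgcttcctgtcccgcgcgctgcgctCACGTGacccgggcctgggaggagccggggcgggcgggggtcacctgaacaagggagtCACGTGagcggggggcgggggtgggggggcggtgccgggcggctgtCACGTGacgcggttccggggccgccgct
LAMP1 (chr13:113296989-113297238, plus strand): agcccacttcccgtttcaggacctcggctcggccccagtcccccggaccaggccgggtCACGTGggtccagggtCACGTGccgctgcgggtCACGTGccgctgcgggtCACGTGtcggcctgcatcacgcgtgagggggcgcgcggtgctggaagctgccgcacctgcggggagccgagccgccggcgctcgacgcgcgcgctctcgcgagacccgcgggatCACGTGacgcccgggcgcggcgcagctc

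Having the core did not go with 1 direction. Of the 10 genes with it, 3 rose (IGF2R, ARSB, GNPTG), 3 fell (NEU1, CTSA, CTSD) and 4 did not pass the test (M6PR, CD63, GAA, LAMP1), with log2 fold changes from -1.04 to 1.19. Of the 17 tested genes with a window and no core, 1 rose (CTSL) and 7 fell. Over all tested genes, 17.6% rose and 16.6% fell. These are descriptions of letters in a window, and binding was not measured.

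**Figure D2:**
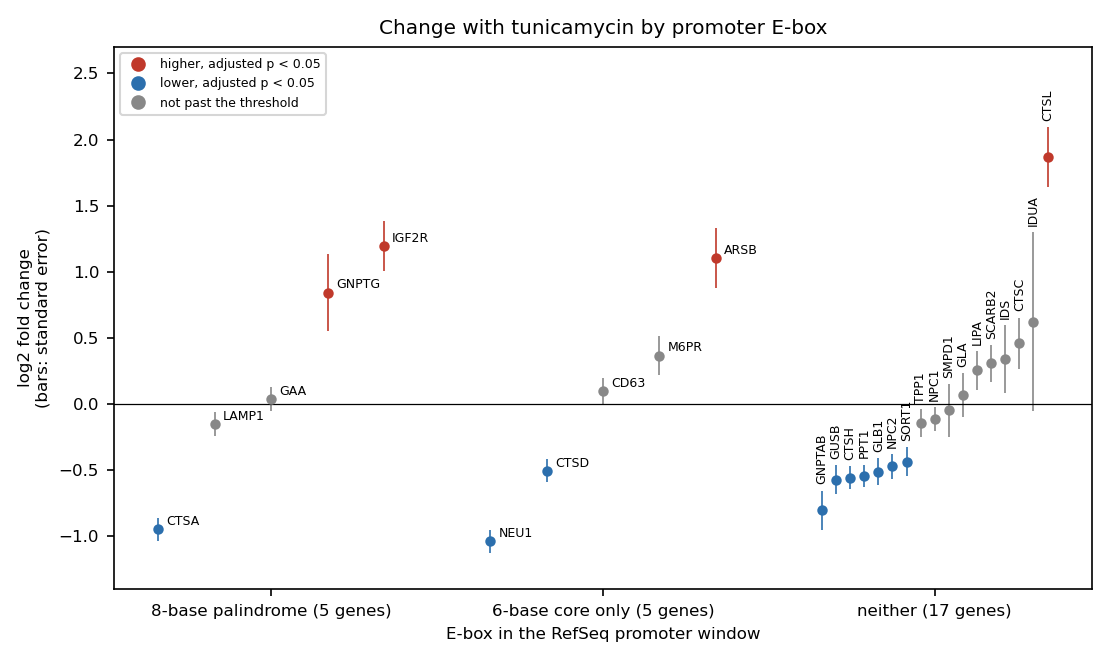
Log2 fold change (y axis, with standard errors) of the 27 tested genes that have a RefSeq promoter window, in 3 groups on the x axis: 8-base palindrome, 6-base core only, or neither. Genes that rose and genes that fell occur in all 3 groups, from NEU1 at -1.04 to CTSL at 1.87.

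The machinery that tags hydrolases and sorts them changed in both directions. IGF2R (chr6:159969082-160113507, plus strand, GRCh38), the large mannose 6-phosphate receptor, which also takes up IGF2, gave 275, 345, 427, 569 and 380 normalized counts without treatment and 513, 967, 869, 1157 and 1075 with tunicamycin, in each case in the order of replicates 1 to 5, as for all genes here. Tunicamycin replicate 1 lay below untreated replicate 4, so the groups overlapped, although each tunicamycin library was above the untreated library of its own day. The mean rose from 399 ± 110 to 916 ± 250 (SD, n = 5), a log2 fold change of 1.19 (SE 0.19, edgeR adjusted p = 7.26e-05). Without the 2 shallowest tunicamycin libraries it was 0.98 (adjusted p = 0.00137). M6PR, the small, cation-dependent receptor for the same tag, had 358 to 762 normalized counts untreated and 696 to 915 with tunicamycin. It did not pass the test (log2 fold change 0.37, SE 0.15, adjusted p = 0.0638), was higher in 5 of 5 pairs, and passed it with the replicate day as a block (0.41, adjusted p = 0.00174). It also passed without untreated replicate 4 (adjusted p = 0.0324), untreated replicate 5 (0.0453) or tunicamycin replicate 1 (0.0347). Without untreated replicate 1, its lowest library, the log2 fold change of M6PR was only 0.22. Across the 21 alternatives the highest adjusted p of M6PR was 0.24. The end of M6PR overlaps that of PHC1 on the opposite strand, and the strand setting of the counting is not stated.

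The phosphotransferase that starts the tag has its alpha and beta subunits, which hold the catalytic site, encoded by GNPTAB and its gamma subunit by GNPTG, and these genes moved apart. GNPTAB (chr12:101745499-101830959, minus strand) had 278, 215, 212, 230 and 239 normalized counts untreated and 179, 156, 114, 89.3 and 125 with tunicamycin. All tunicamycin libraries were below all untreated ones, and the log2 fold change was -0.80 (SE 0.15, adjusted p = 0.000372). GNPTG (chr16:1351931-1365737, plus strand) had 49.9, 56.2, 89.2, 157 and 101 normalized counts untreated and 63.3, 205, 164, 212 and 176 with tunicamycin. It was higher in every pair, but untreated replicate 4 was above tunicamycin replicate 1. Its log2 fold change of 0.84 (SE 0.29) passed the edgeR test with an adjusted p of 0.0311, while the exact two-sided permutation test on its own values gave p = 0.0952.

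The call of GNPTG was lost in 9 alternatives, with log2 fold changes in them of 0.68 to 0.86. Leaving out untreated replicate 1, 2 or 3 gave an adjusted p of 0.0673, 0.0876 or 0.0589. Leaving out tunicamycin replicate 2, 3, 4 or 5 gave 0.0831, 0.0576, 0.0748 or 0.0586, and leaving out the 2 shallowest tunicamycin libraries gave 0.153. DESeq2 gave 0.0878, whereas in edgeR with the day as a block the adjusted p was 0.000172. The last 500 bases of GNPTG also overlap UNKL on the opposite strand in GENCODE, and whether the counting used the strand is not stated, so part of its reads cannot be told apart from those of UNKL. Within each library, the log2 ratio of GNPTG to GNPTAB was -1.49 ± 0.73 untreated and 0.23 ± 1.02 with tunicamycin (SD, n = 5), a difference of 1.72. The ratio of IGF2R to M6PR averaged -0.65 ± 0.25 and 0.12 ± 0.32. These ratios, with that of CTSL to CTSD below, were chosen after the values of their genes were seen and are given without a test.

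SORT1, the gene of sortilin, a receptor that sorts some lysosomal proteins without the mannose 6-phosphate tag, had 275, 286, 313, 388 and 331 normalized counts untreated and 211, 265, 229, 242 and 232 with tunicamycin. The groups did not overlap, though untreated replicate 1 and tunicamycin replicate 2 were close, and the log2 fold change was -0.44 (SE 0.11, adjusted p = 0.00382). In all, 2 of the 5 tagging and sorting genes rose, 2 fell and M6PR did not pass the test. The share that passed was 80%, beside 34.2% of all tested genes, in a list of only 5.

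**Figure D3:**
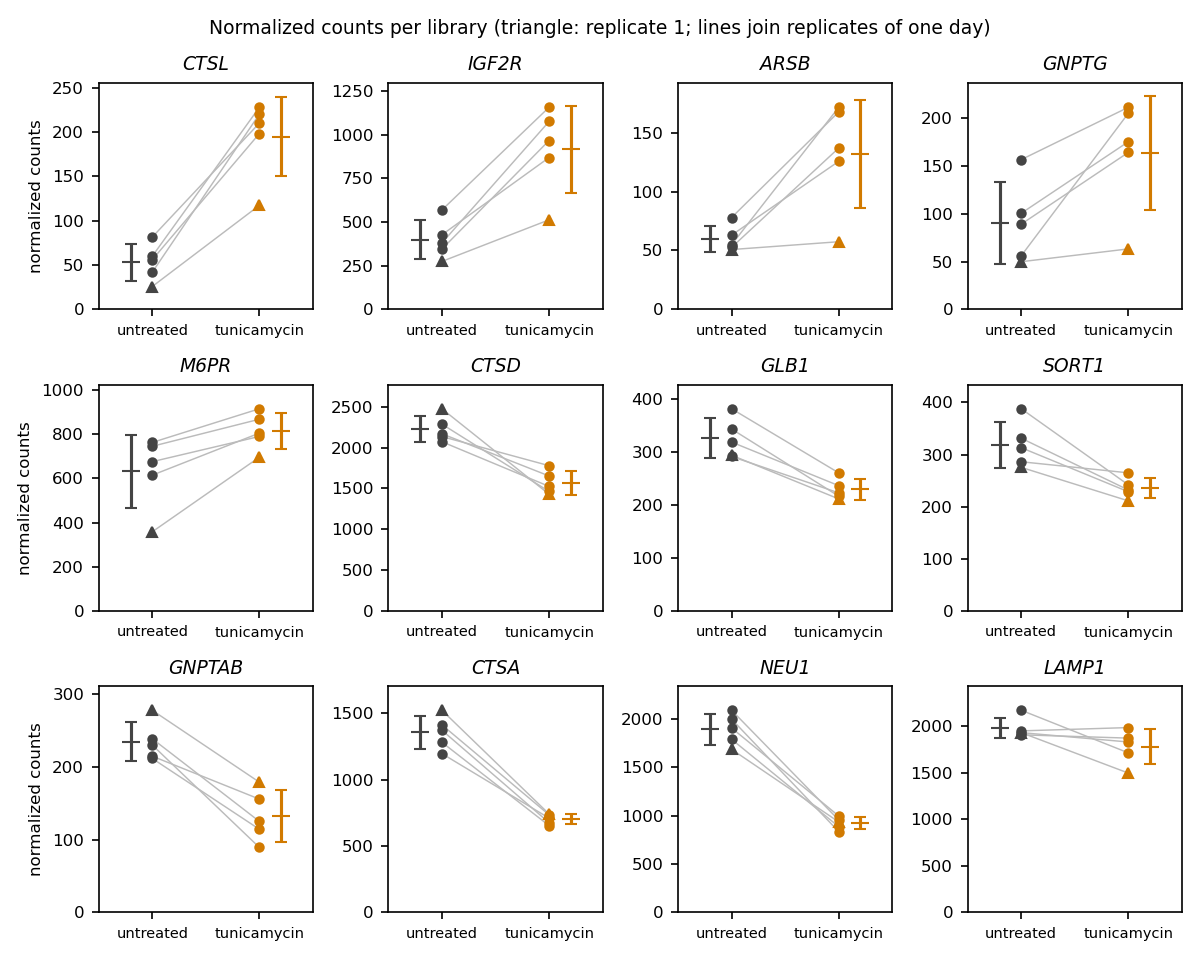
Normalized counts (y axis, from 0) in each library for 12 lysosomal genes; points are libraries, triangles mark replicate 1, lines join libraries of the same day, and bars beside them give mean and SD (n = 5). CTSL separates completely upwards, IGF2R, ARSB and GNPTG rise with replicate 1 lowest in both conditions, CTSD to NEU1 separate downwards, and M6PR and LAMP1 overlap.

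Cathepsins and other proteases included the largest rise. CTSL (chr9:87724051-87731469, plus strand), the cysteine protease cathepsin L, had 25.8, 41.9, 56.0, 81.5 and 60.0 normalized counts untreated and 117, 220, 198, 210 and 228 with tunicamycin. The lowest tunicamycin library was above the highest untreated library. The mean rose from 53.0 ± 20.8 to 195 ± 45 (SD, n = 5), 3.64-fold, or 1.87 on the log2 scale (SE 0.23, adjusted p = 3.77e-06), which put CTSL at the 98.8th percentile of log2 fold changes of all tested genes.

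Of the other proteases, CTSA, CTSD and CTSH fell. CTSA (chr20:45890144-45898949, plus strand), the serine carboxypeptidase cathepsin A, which also protects the enzymes encoded by NEU1 and GLB1 in a shared complex, had 1524, 1413, 1197, 1282 and 1373 normalized counts untreated and 742, 735, 710, 654 and 676 with tunicamycin. The spread of the tunicamycin libraries (SD 37.8) was small beside the difference, and the log2 fold change was -0.95 (SE 0.09, adjusted p = 9.22e-08). The 3′ end of CTSA overlaps that of PLTP on the opposite strand, so the same limit on strand holds for its counts. CTSD, the aspartic protease cathepsin D, had 2476, 2072, 2170, 2136 and 2288 normalized counts untreated and 1429, 1525, 1653, 1779 and 1463 with tunicamycin. It is 1 of the most abundant genes of the list, did not overlap between conditions, and fell by 0.51 on the log2 scale (SE 0.09, adjusted p = 0.000178).

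CTSH, the aminopeptidase cathepsin H, had 1165, 939, 977, 939 and 942 normalized counts untreated and 718, 641, 689, 705 and 615 with tunicamycin, without overlap. Its log2 fold change was -0.56 (SE 0.09, adjusted p = 6.12e-05). CTSC, the dipeptidyl peptidase that activates other proteases, ranged from 141 to 263 untreated and from 160 to 354 with tunicamycin. It did not pass the test (0.46, SE 0.19, adjusted p = 0.0756), but passed it with the replicate day as a block (adjusted p = 0.00173), without tunicamycin replicate 1 (0.61, adjusted p = 0.00654) and without untreated replicate 4 (0.60, adjusted p = 0.0283). Across the 21 alternatives its log2 fold change ran from 0.18 to 0.61, with adjusted p of up to 0.534. CTSB, the abundant cysteine protease cathepsin B, averaged 1756 ± 150 untreated and 1777 ± 320 with tunicamycin (log2 fold change 0.016), and TPP1, the tripeptidyl peptidase mutated in a form of Batten disease, averaged 663 ± 83 and 600 ± 76 (-0.14). The cathepsins therefore did not move as a block: of 7 tested proteases 1 rose, 3 fell and 3 did not pass the test, with a median of -0.14. The share that passed was 57.1%, beside 34.2% of all tested genes. The log2 ratio of CTSL to CTSD within a library averaged -5.48 ± 0.69 untreated and -3.04 ± 0.36 with tunicamycin (SD, n = 5).

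Glycosidases, which remove sugars from glycoproteins, glycolipids and glycosaminoglycans, held the largest fall. NEU1 (chr6:31857659-31862905, minus strand), the lysosomal sialidase, had 1688, 1791, 1909, 2000 and 2092 normalized counts untreated and 936, 887, 998, 835 and 956 with tunicamycin. The highest tunicamycin library was far below the lowest untreated one, and the log2 fold change was -1.04 (SE 0.09, adjusted p = 3.22e-08). GLB1, the beta-galactosidase, had 294, 318, 343, 291 and 381 normalized counts untreated and 211, 236, 216, 223 and 260 with tunicamycin. It fell by 0.51 on the log2 scale (SE 0.10, adjusted p = 0.000679) without overlap, so all 3 genes of the complex of sialidase, cathepsin A and beta-galactosidase were lower with tunicamycin. GUSB, the beta-glucuronidase of glycosaminoglycan breakdown, had 218, 224, 227, 204 and 222 untreated and 166, 160, 149, 113 and 143 normalized counts with tunicamycin. The untreated libraries were tight (SD 8.74), and the log2 fold change was -0.57 (SE 0.11, adjusted p = 0.000518).

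The other 6 tested glycosidases did not pass the test, so 33.3% of the 9 tested passed it, beside 34.2% of all tested genes. HEXA, a subunit of beta-hexosaminidase, averaged 225 ± 27 untreated and 232 ± 25 with tunicamycin (log2 fold change 0.051), GAA, the glycogen-degrading acid alpha-glucosidase, 306 ± 26 and 313 ± 19 (0.040), and GLA, the alpha-galactosidase deficient in Fabry disease, 91.8 ± 14.0 and 98.1 ± 24.0 (0.067). NAGLU, which acts on heparan sulfate, averaged 135 ± 25 and 132 ± 34 (-0.061). MANBA, the beta-mannosidase, averaged 93.4 ± 33.6 and 111 ± 24 (0.23), with untreated replicate 1 far below the others at 35.3. IDUA, the iduronidase, had at most 6.03 normalized counts in any library, so its log2 fold change of 0.62 (SE 0.67) says little at this depth.

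Sulfatases need a shared activating enzyme, encoded by SUMF1, and strip sulfate from glycosaminoglycans and sulfatides. ARSB, which acts on dermatan sulfate, had 50.8, 52.6, 63.0, 77.9 and 54.9 normalized counts untreated and 57.4, 137, 126, 168 and 172 with tunicamycin. Tunicamycin replicate 1 lay among the untreated libraries and the other 4 above them all, and the log2 fold change was 1.10 (SE 0.23, adjusted p = 0.000864). Without both replicate 1 libraries it was 1.26 (adjusted p = 8.19e-07), and without the 2 shallowest tunicamycin libraries 0.83 (adjusted p = 0.0142). ARSA, which acts on sulfatides, averaged 31.6 ± 8.9 and 22.7 ± 8.1 (-0.48, SE 0.27, adjusted p = 0.18), and IDS, the iduronate sulfatase, 28.1 ± 8.4 and 34.4 ± 11.7 (0.34, SE 0.26). Both differences were within the spread between libraries. IDS has a second row in the table, which was at 0 counts in all libraries and overlaps its 3′ end.

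Among genes of lipid breakdown, 3 of 6 fell and none rose, 50% past the threshold beside 34.2% of all tested genes. The lists by role hold few genes each, and no test was run over them. PPT1, the thioesterase that removes palmitate from proteins, had 525, 570, 499, 579 and 527 normalized counts untreated and 410, 360, 344, 349 and 387 with tunicamycin. ASAH1, the acid ceramidase, had 418, 389, 404, 395 and 419 untreated and 280, 295, 285, 268 and 323 with tunicamycin. NPC2, the soluble carrier that binds cholesterol in the lysosome, had 977, 1149, 1095, 1235 and 1297 untreated and 772, 804, 754, 923 and 900 with tunicamycin. None of the 3 overlapped between conditions, and they fell by 0.54 (SE 0.09, adjusted p = 7.38e-05), 0.49 (SE 0.09, adjusted p = 0.000203) and 0.47 (SE 0.09, adjusted p = 0.000658) on the log2 scale. Other genes of the same processes did not pass the test: LIPA, the acid lipase that frees the cholesterol NPC2 carries, averaged 166 ± 39 and 200 ± 30 (0.25, adjusted p = 0.199), and PSAP, the precursor of the saposins that help enzymes of sphingolipid breakdown, averaged 2573 ± 97 and 2923 ± 211 (0.18, adjusted p = 0.0813). LIPA passed the test without untreated replicate 4 (0.40, adjusted p = 0.0386), and PSAP with DESeq2 (adjusted p = 0.033). In other alternatives their adjusted p reached 0.635 and 0.403. SMPD1, the acid sphingomyelinase, averaged 35.8 ± 5.2 and 34.9 ± 8.2 (-0.049).

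None of the 5 membrane glycoproteins passed the test, beside 34.2% of all tested genes that did. LAMP1 and CD63 are among the 7 most abundant genes of the list. LAMP1, a heavily glycosylated protein that lines the lysosomal membrane, had 1928, 1928, 1905, 1947 and 2168 normalized counts untreated and 1494, 1828, 1869, 1982 and 1711 with tunicamycin. The groups overlapped, with a log2 fold change of -0.15 (SE 0.09, adjusted p = 0.194). LAMP2, its relative, averaged 712 ± 131 and 812 ± 101 (0.19, adjusted p = 0.23), CD63, a tetraspanin of late endosomes, 3251 ± 409 and 3481 ± 315 (0.10, adjusted p = 0.462), and NPC1, the membrane partner of NPC2 in cholesterol export, 257 ± 15 and 237 ± 9 (-0.11, adjusted p = 0.349), with RMC1 on the opposite strand at its 3′ end. SCARB2, also called LIMP-2, which carries glucocerebrosidase to the lysosome without the mannose 6-phosphate tag, averaged 190 ± 46 and 235 ± 16 (0.31, SE 0.14, adjusted p = 0.0992). SCARB2 was higher in 5 of 5 pairs and passed the test with the replicate day as a block (0.34, adjusted p = 0.0227), without untreated replicate 4 (adjusted p = 0.0454) and without untreated replicate 5 (0.0436), but not with DESeq2 and the block (0.34, adjusted p = 0.0541). Its lowest log2 fold change in the alternatives was 0.21, and its highest adjusted p was 0.256. With CTSC and M6PR, SCARB2 raised the number of lysosomal genes that rose from 4 to 7 under the block in edgeR. DESeq2 with the block gave 6, and without untreated replicate 4 the number was 8. The number over all tested genes also rose under the block in edgeR, from 2237 to 2499 of 12733. It was 2042 under DESeq2 with the block, and 2249 of 12937 without untreated replicate 4.

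**Figure D4:**
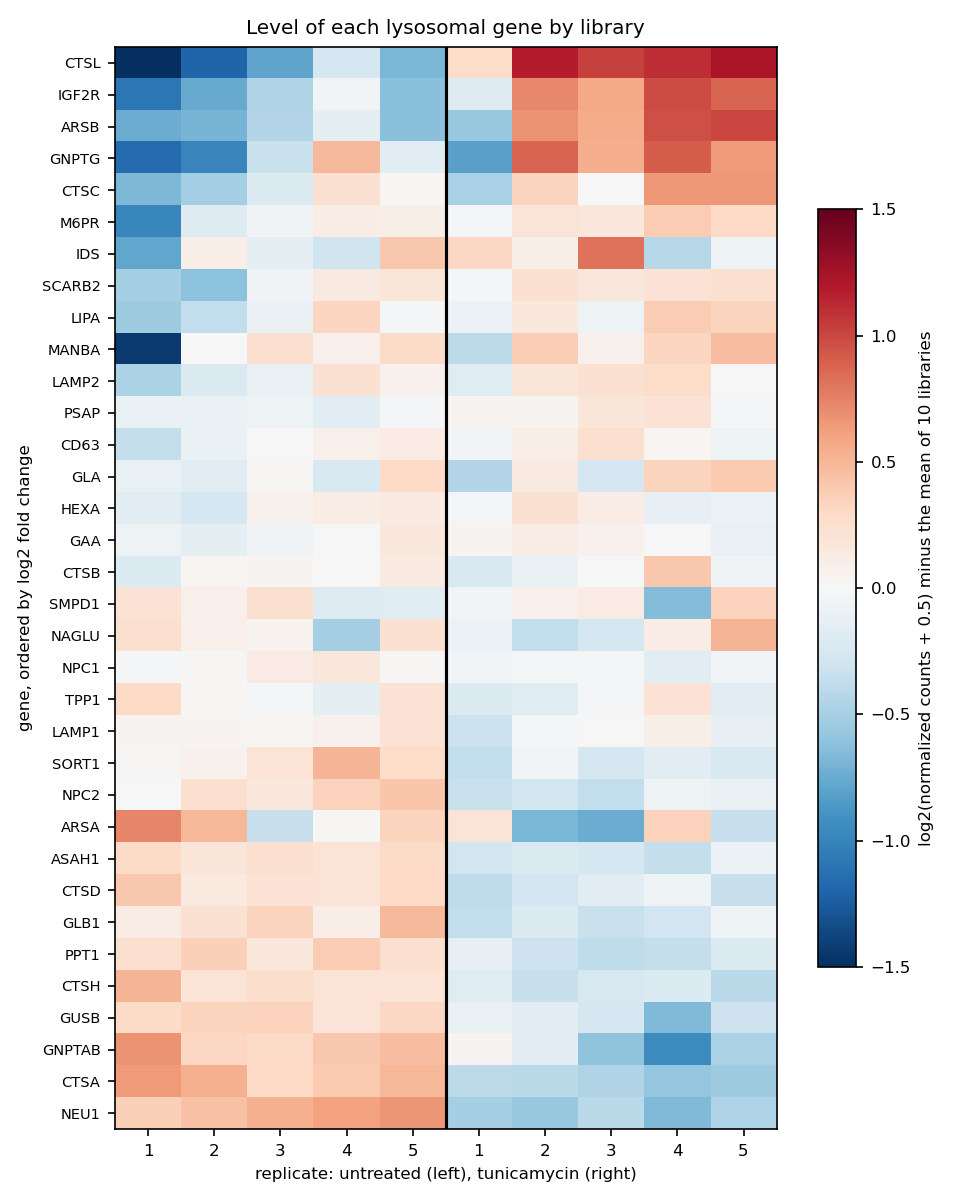
Level of 34 of the 35 tested genes (rows, ordered by log2 fold change; IDUA is left out for its few counts) in each library (columns, replicates 1 to 5 untreated, then tunicamycin), as log2(normalized counts + 0.5) minus the gene's mean over the 10 libraries. The top rows turn from blue to red and the bottom rows from red to blue across the black line, and replicate 1 is paler or bluer than its group in the rows of IGF2R, ARSB, GNPTG and CTSC.

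Replicate 1 stood apart for many of these genes in both conditions. It was the lowest library of both groups for 11 of the 35 (CTSL, IGF2R, ARSB, GNPTG, CTSC, M6PR, LIPA, MANBA, LAMP2, CTSB and SORT1), where 10.8% of all tested genes had this pattern, and the highest of both for 4 (IDUA, CTSH, GNPTAB and CTSA), where 8.65% did. All 4 genes that rose were in the first set. With both replicate 1 libraries left out, as an alternative added after the data were seen, IGF2R rose by 1.24 and GNPTG by 0.92 (adjusted p = 0.000556), while NEU1 fell by 1.08 and CTSA by 0.91 on the log2 scale. The cause of the shift in replicate 1 was not tested.

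The genes that fell were all among the more abundant genes, but high levels were common in the whole list. Every lower gene had an untreated mean of at least 219 normalized counts, at or above the 75.5th percentile of tested genes. CD63, PSAP, LAMP1, CTSB, LAMP2, TPP1, M6PR, GAA, NPC1 and HEXA, which did not pass the test, also lay above that percentile. ARSA, at 31.6 untreated, had a log2 fold change of -0.48, as large as some of the falls, and did not pass. The higher genes started between 53.0 for CTSL and 399 for IGF2R, the latter above GLB1, SORT1, GNPTAB and GUSB, which fell. CD63, PSAP, CTSD, LAMP1, NEU1, CTSB and CTSA together held 63.7% of the untreated sum of normalized counts, and 3 of these 7 fell. Summed over the 11 lower genes, the mean difference was -3564 normalized counts per library, of which NEU1 gave -974, CTSD -659 and CTSA -654. The 4 higher genes summed to 804, of which IGF2R gave 517, and the 20 genes that did not pass the test summed to 793.

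As a share of all reads, the lysosomal genes took 0.524% to 0.589% in untreated libraries and 0.458% to 0.50% with tunicamycin, without overlap. After normalization the sums overlapped, from 22052 to 25398 counts untreated and from 19466 to 23419 with tunicamycin. Mitochondrial transcripts, which took 22.7% to 25.2% of untreated and 18.3% to 28.8% of tunicamycin reads, did not change the first comparison: without them the shares were 0.688% to 0.787% and 0.561% to 0.671%.

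Lists of 115 lysosomal genes outside the 37 were examined beside them. Of 106 tested, 18 rose (17.0%, beside 17.6% of all tested genes) and 26 fell (24.5%, beside 16.6%), with a median log2 fold change of 0.0089. Among 32 further hydrolases and cofactors 2 rose and 8 fell, 31.25% in all beside 34.2% of all tested genes. With the replicate block 4 rose and 7 fell, beside 2499 and 2312 of 12733 tested genes. CREG1, a secreted glycoprotein of the endolysosome, rose by 0.97 and AGA, which cuts the link between asparagine and glycans, by 0.71. GM2A, the activator that presents ganglioside to the enzyme encoded by HEXA, fell by 1.22 and PLA2G15, a lysosomal phospholipase, by 0.92. Among 23 further membrane proteins 6 rose and 6 fell (52.2%, beside 34.2%). Scaled by library size only, 2 rose and 6 fell, beside 1774 and 2570 of 12733 tested genes. SLC38A9, an arginine sensor, was at 0.82 and the sialomucin CD164 at 0.58. TMEM63A, an ion channel, was at -0.86 and CD68 at -0.83. CD68 is also a macrophage marker and had 5 to 41 counts per library here.

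Of 17 tested genes of the V-ATPase, the pump that acidifies the lysosome, 4 rose and 3 fell, 41.2% in all beside 34.2% of all tested genes, with ATP6V0A2 at 0.94 and ATP6V1H at 0.79, and ATP6V0E2 at -1.18 and ATP6V0E1 at -0.50. Of 20 further sorting genes, mainly of clathrin adaptors, coats and retromer, 5 rose and 6 fell (55%, beside 34.2%). The list also holds SORL1 and RAB7A, which rose by 0.37 and 0.26, and NAGPA, which fell by 0.46. Scaled by library size only 2 rose, without tunicamycin replicate 3 it was 3, and without the 2 shallowest tunicamycin libraries 3 rose and 3 fell. Over all tested genes, 1774 of 12733, 1986 of 12957 and 1810 of 13190 rose in these settings. The falls were 2570, 1827 and 1667. In the main test 2237 rose and 2116 fell. The largest rises were those of the AP-3 subunits AP3S1 at 0.76 and AP3D1 at 0.54. The largest falls were those of the AP-1 subunits AP1S1 at -0.94 and AP1M1 at -0.57. AP-1 carries mannose 6-phosphate receptors between the Golgi and endosomes, and AP-3 carries membrane proteins to lysosomes.

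The Ragulator scaffold and the Rag GTPases report lysosomal nutrients to factors of the TFEB family. Of 14 tested genes of this module 4 passed the test, 28.6% beside 34.2% of all tested genes. Of these, 1 rose, LAMTOR3 at 0.97, and 3 fell, the largest falls being RRAGD at -0.71 and FNIP1 at -0.48. TFEB (log2 fold change -0.54, SE 0.33, adjusted p = 0.215) and TFE3 (0.081, SE 0.14, adjusted p = 0.698) did not pass the test, and MITF and TFEC had at most 4 and 0 counts. These 4 factors are given for the E-box described above and were singled out after their values were seen. The localization of TFEB and TFE3 proteins, through which they are mainly regulated, was not measured.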

How the data were processed

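HepG2 cells were measured by QuantSeq 3′ RNA sequencing in 5 untreated and 5 tunicamycin-treated samples. The authors processed the reads with the nf-core RNA-Seq pipeline at default settings on hg19 with Ensembl transcript definitions, and deposited raw counts per gene. Beyond these defaults, the aligner, the counting program and the strand setting are not given in the sources used here. The 37 genes and all other lists were chosen with earlier results of these data known. All 37 genes were named, and from each further list the 2 genes with the largest rises and the 2 with the largest falls among those past the threshold. SUMF1, SORL1, RAB7A and NAGPA were named beside these.

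From the counts, genes were kept by filterByExpr (minimum count 2, minimum total 10), scaled by TMM, and tested with edgeR 4.0.16 in R 4.3.3 by the quasi-likelihood test in a model of treatment alone, with Benjamini-Hochberg adjustment at 0.05. Normalized counts are counts divided by the effective library size and multiplied by its mean over the 10 libraries. The standard error is the absolute log2 fold change divided by the square root of F, and log2 ratios within pairs used a pseudocount of 0.5. Permutation tests were exact and two-sided. Replicate numbers mark separate days per the series' design text, so they pair the libraries: over 10736 genes, deviations from group means correlated within pairs by 0.323, 0.0157, 0.0382, 0.133 and 0.102. The fit was tested on simulated data. Alternatives were DESeq2 1.42.0, its size factors, library size only, other filters, the replicate block, thinning, removal of mitochondrial genes and leaving out libraries. Positions are from GENCODE on GRCh38 and promoters from RefSeq on GRCh38.p14. P-values measure the spread between replicate experiments of 1 cell line. No protein sequences were used here, so glycosylation sites were not counted.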

Additional observations from a re-analysis of the deposited data

Results flagged for a closer look

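In 6 of 70 groups of 5 libraries (35 genes in both conditions), 1 library stood farther from the rest than Dixon's 95% limit allows, and chance alone would give about 3.5. CTSL was at 117 normalized counts in tunicamycin replicate 1, where the other 4 tunicamycin libraries had 198 to 228. SCARB2 was at 207 in the same library, where the others had 235 to 246. MANBA was at 35.3 in untreated replicate 1, where the others had 97.2 to 118, and CTSH was at 1165 there, where the others had 939 to 977. NPC1 was at 221 in tunicamycin replicate 4, where the others had 239 to 243. LAMP1 was at 2168 in untreated replicate 5, where the others had 1905 to 1947. Of these 6 values, 4 belong to replicate 1 libraries, and no cause was tested.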

How the results depend on the processing

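Of the 15 lysosomal genes past the threshold, 14 kept their direction and their side of it in all 21 alternatives, with GNPTG the exception in 9. The replicate block gave 7 higher genes and left 11 lower, and beside CTSC, M6PR and SCARB2 it changed no other call among the 35. Over all genes 4811 instead of 4353 passed, with 2499 instead of 2237 higher and 2312 instead of 2116 lower. Leaving out 1 library gave 3 to 8 higher genes and 11 lower ones in each case. Over all tested genes it gave 1956 to 2317 higher and 1827 to 2171 lower. Library size only moved the split over all genes from 51.4% to 40.8% higher and shifted the median of all genes to -0.083. It left 2 of 23 further membrane proteins and 2 of 20 further sorting genes higher. LAMP1 passed the threshold as lower (-0.24, adjusted p = 0.0419). Medians were -0.077 for the 35 genes, 0.28 for tagging and sorting and -0.12 for the 20 further sorting genes. Without the 2 shallowest tunicamycin libraries, an alternative chosen after seeing the data, these 3 medians were -0.083, 0.28 and 0.035. Without both replicate 1 libraries the tagging and sorting median was 0.28 and that of further hydrolases -0.17. With 1 library left out, the tagging and sorting median ranged from 0.22 to 0.45 and the V-ATPase median from 0.096 to 0.21.

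Signs turned only for genes near 0 that never passed the threshold. Library size only gave GLA -0.020, HEXA -0.029, GAA -0.041 and CTSB -0.077, and thinning gave CTSB -0.017. Without both replicate 1 libraries SMPD1 was 0.015 and NAGLU 0.013, and without the 2 shallowest libraries GLA was -0.14, CTSB -0.11 and SMPD1 0.012. With 1 library left out, CTSB ranged from -0.093 to 0.073, HEXA from -0.0055 to 0.094, SMPD1 from -0.12 to 0.070, NAGLU from -0.19 to 0.028 and GLA from -0.014 to 0.18. The cause was not tested for any of these. Depth limits IDUA, IDS, ARSA and SMPD1, which have few counts.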
